A study of Mus musculus with 6 samples.

Results

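The translation initiation and elongation factors, whose genes carry the names Eif1 to Eif6 and Eef1 or Eef2 with a letter or number for the subunit, were followed through 6 RNA libraries of WNT medulloblastoma, a hindbrain tumour with active WNT signalling, grown in mice. Members were chosen by name alone. Of 71 count rows with such names, 4 pseudogene rows were left out, as were the 8 rows of Eif2s3x, Eif2s3y, Eef2, Eef2k, Eif4e and the 3 Eif4ebp genes, which left 59 of 34591 gene rows. Of these, 57 passed the filter on low counts and were tested. The study holds 3 libraries labelled as the control model and 3 labelled as the sh2-Ift88 model, read as a hairpin knockdown of Ift88, whose protein belongs to the intraflagellar transport machinery needed to build primary cilia. The labels call all 6 brain tissue of the medulloblastoma model. Strain, age, the cells that carried the hairpin and the vector of the controls are not stated. Libraries are called control 1 to 3 and sh2-Ift88 1 to 3, numbered in the order of deposit, and nothing states that they came from separate animals, so p-values measure only the spread between these samples, which may be technical.

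Translation of an mRNA starts when eIF2, loaded with GTP and the initiator tRNA, joins the small ribosomal subunit together with eIF1, eIF1A, eIF3 and eIF5, and when the eIF4 factors bring the subunit to the capped 5′ end. eIF2B then recharges eIF2 with GTP, a step that the eIF2 kinases slow under stress. Elongation is driven by eEF1A, which delivers aminoacyl-tRNAs and is recharged by the eEF1B subunits, and by eEF2. By its title the series concerns how primary cilia relate to translation, and the comparison here asks whether transcripts of the machinery itself differ between the models.

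Each library held from 26802618 to 33772559 reads on genes. The scaling factor of sh2-Ift88 3 was 0.598, against 1.05 to 1.24 in the other libraries. In that library the 10 most counted genes took 50.9% of gene counts and the single row Gm10800 took 20.3%. Reads of olfactory receptor genes, which are not normally expressed in brain tumours, were found in 387 to 564 of 1249 rows in control 2, sh2-Ift88 2 and sh2-Ift88 3, and in 24 to 38 rows in the other 3 libraries. The WNT targets Axin2, Lef1 and Wif1, markers of this tumour, were present in all 6 libraries, with lowest levels of 320, 69.0 and 1346 CPM (reads scaled to a common library size). Ift88 itself was at 13.8, 19.7 and 13.7 CPM across the controls and 14.7, 16.0 and 14.4 CPM across the libraries labelled sh2-Ift88, so the groups overlapped and this transcript did not set the labels apart. Higher and lower always refer to the libraries labelled sh2-Ift88 relative to the controls.

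No translation factor gene passed the test of a difference between the groups. None of the 57 tested members passed an adjusted p of 0.05 with edgeR's quasi-likelihood test, where 0% of all 16768 genes passed in either direction, and 0.9995 was their smallest adjusted value. No member reached an unadjusted 0.05, as 3.23% of all genes did (1.97% higher and 1.26% lower). DESeq2 called 0.262% of all genes higher and 0.0716% lower, and neither DESeq2 nor limma-voom called a member. Of the members, 25 were higher and 32 lower (43.9% higher; 48.7% of all genes lay above 0 and 51.3% below), with a median log2 fold change of -0.049 against -0.012 for all genes. That split rests on single libraries and on the scaling: 37 of 57 were higher without control 3, 18 of 58 without sh2-Ift88 1 and 8 of 57 with library totals alone, which moved the median of all genes to -0.33. The median size of the change without regard to sign was 0.17 on the log2 scale, against 0.29 for all genes. For 38 of 57 members the 95% confidence interval of the fold change lay inside a 2-fold change in both directions, so for these a larger difference lies outside the interval. The 2 members whose groups did not overlap, Eif2s1 and Eif2b4, were both lower. Of all genes 8.39% had groups that did not overlap, made up of 3.69% lower and 4.70% higher.

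**Figure D1:**
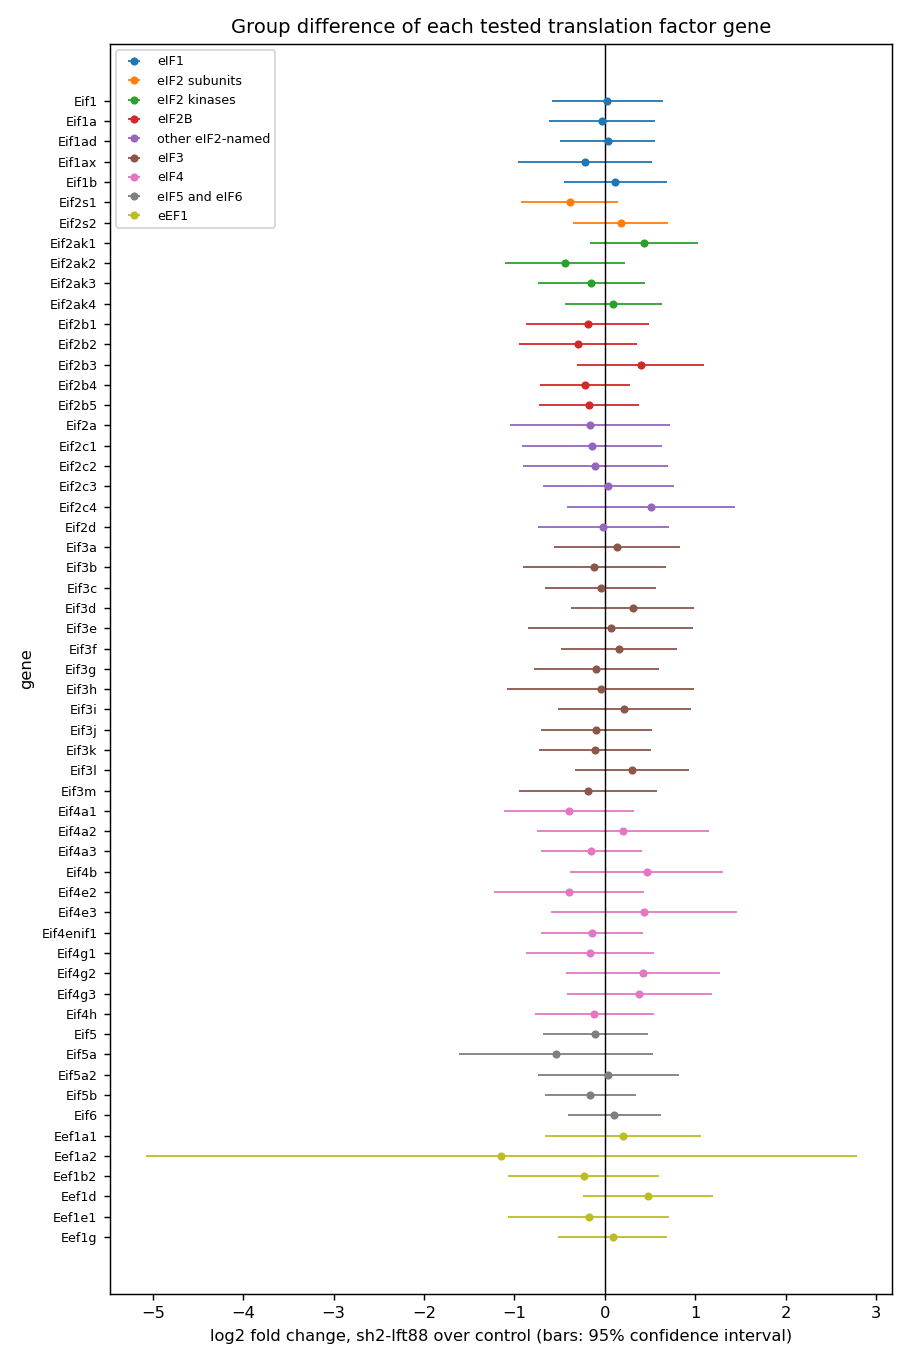
Log2 fold change of each tested translation factor gene (x axis, libraries labelled sh2-Ift88 over controls, n = 3 each, edgeR) with its 95% confidence interval, coloured by factor complex. Every interval spans 0, and that of Eef1a2 is the widest, from 2.96% to 690% of the control level.

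The spread between libraries of one group was the larger part of the variation. The difference between group means was smaller than the within-group standard deviation for 45 of 57 members (78.9%), as it was for 74.0% of all genes. Between the highest and the lowest of the 6 libraries the members differed by a median of 1.80-fold, and 23 of 57 differed by more than 2-fold. By this ratio the steadiest was Eif2ak4, the kinase GCN2 that senses uncharged tRNA, at 20.7, 21.3 and 21.8 CPM across the controls and 25.2, 19.9 and 23.2 CPM across the libraries labelled sh2-Ift88. sh2-Ift88 1 held the highest level of 19 members and control 3 of 18, while sh2-Ift88 2 held the lowest of 18 and control 2 of 14. Summed over members, the level was 18869, 13397 and 18446 CPM across the controls and 21170, 14636 and 18728 CPM across the libraries labelled sh2-Ift88. The 2 lowest sums were thus 1 of each group. Both carry olfactory receptor reads, as does sh2-Ift88 3, whose sum was not low after scaling. As a share of gene counts, before scaling, members took 2.01%, 1.48% and 2.28% across the controls. Across the libraries labelled sh2-Ift88 these shares were 2.22%, 1.60% and 1.12%, so before scaling sh2-Ift88 3 was the lowest. The summed level of 10 markers of dividing cells was lowest in sh2-Ift88 2, at 590.0 CPM, against 1086 to 1661 CPM in the other 5. The part of either in the lower sums was not tested.

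**Figure D2:**
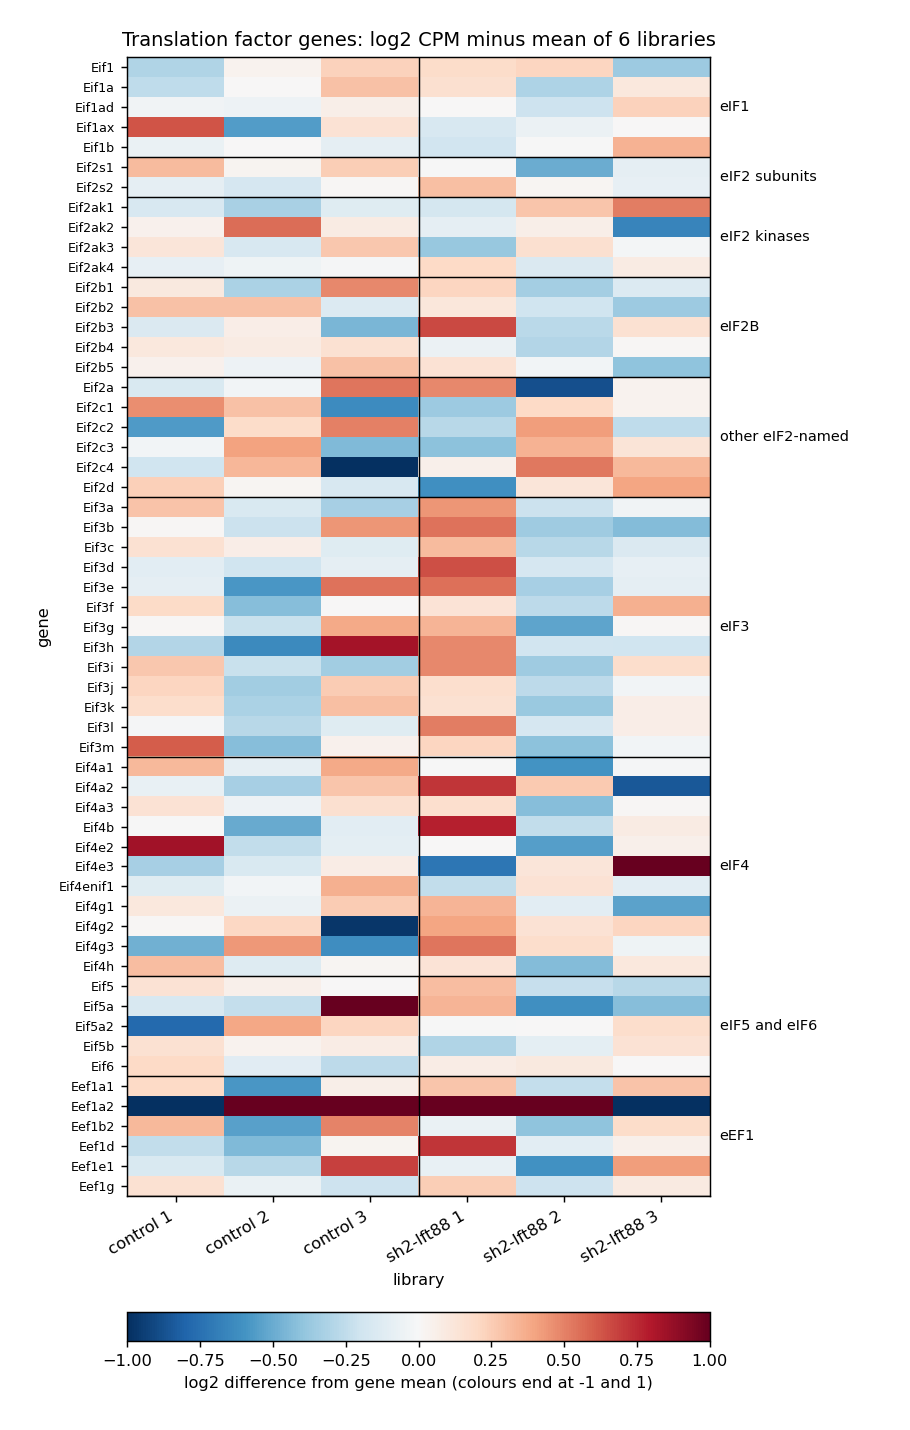
Log2 CPM of each tested translation factor gene in each library minus its mean over the 6 libraries, with genes in rows by complex and the controls left of the vertical line. All 13 eIF3 genes are above their mean in sh2-Ift88 1 and below it in sh2-Ift88 2. Of all 57 tested members, 39 are above in sh2-Ift88 1 and 39 below in sh2-Ift88 2.

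Genes of the scanning factors eIF1 and eIF1A, which open the ribosome and help it select the start codon, had 3 of 5 tested members higher and 2 lower, with a median of 0.028. Eif1 was at 51.6, 65.1 and 74.5 CPM across the controls and 72.0, 73.7 and 49.3 CPM across the libraries labelled sh2-Ift88. The groups overlapped, with the lowest level in sh2-Ift88 3. Eif1ax, the X-linked gene for eIF1A, was at 159, 69.8 and 114 CPM across the controls and 92.1, 98.8 and 103 CPM across the libraries labelled sh2-Ift88. All 3 of the latter lay within the range of the controls, and the log2 fold change was -0.22 (standard error 0.32, edgeR adjusted p = 0.9995). The sign turned without control 1, to 0.092. Eif1b, a close homologue of Eif1, ran from 20.8 to 30.2 CPM with a log2 fold change of 0.12 (standard error 0.24), which turned to -0.078 without sh2-Ift88 3. Eif1a and Eif1ad ran from 80.7 to 123 and from 27.5 to 37.3 CPM.

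Of the eIF2 subunits, the alpha gene was lower and the beta gene higher in the libraries labelled sh2-Ift88, and neither passed. Eif2s1 encodes eIF2 alpha, the subunit that the stress kinases phosphorylate. It was at 113, 92.5 and 108 CPM across the controls and 90.1, 64.1 and 84.9 CPM across the libraries labelled sh2-Ift88. Every control lay above every library of the other group, with control 2 and sh2-Ift88 1 the closest. The log2 fold change of -0.39 (standard error 0.23, unadjusted p = 0.133, edgeR adjusted p = 0.9995) had 95% bounds of 52.6% and 111% of the control level. Eif2s2, for eIF2 beta, was at 160, 152 and 172 CPM and at 211, 173 and 162 CPM. These overlapped, with a log2 fold change of 0.17 (standard error 0.23) that fell to 0.032 without sh2-Ift88 1. The gamma subunit genes Eif2s3x and Eif2s3y are not members.

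In the exchange factor eIF2B, 1 of 5 subunit genes was higher and 4 were lower, with a median of -0.19. Eif2b4, of the delta subunit and named after its values were seen, was at 31.8, 31.3 and 32.9 CPM across the controls and 28.4, 24.1 and 29.9 CPM across the libraries labelled sh2-Ift88. The groups did not overlap, but the nearest 2 libraries differed by less than the standard deviation of the lower group, 3.00 CPM. Eif2b3, of the gamma subunit, went the other way, at 32.7, 37.9 and 26.3 CPM and at 57.2, 30.1 and 40.2 CPM. Its highest level was in sh2-Ift88 1, and its log2 fold change of 0.40 (standard error 0.30) fell to 0.10 without that library. Eif2b2, of the beta subunit, was at 19.4, 19.4 and 14.5 CPM and at 17.2, 13.8 and 12.4 CPM, a log2 fold change of -0.30 (standard error 0.28). Eif2b1 (alpha) ran from 23.9 to 42.3 CPM and Eif2b5 (epsilon, which holds the exchange activity) from 48.6 to 78.3 CPM.

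The 4 eIF2 kinases, which shut down initiation under stress, had 2 members higher and 2 lower. Eif2ak1, the haem-regulated kinase, was at 29.8, 26.5 and 30.6 CPM across the controls and 29.4, 40.3 and 47.5 CPM across the libraries labelled sh2-Ift88. It was above all controls in 2 of 3 libraries, and sh2-Ift88 1 lay among the controls. Its unadjusted p, 0.130, was the smallest of all members (log2 fold change 0.43, standard error 0.25, edgeR adjusted p = 0.9995). Eif2ak2, the double-stranded RNA sensor PKR, was at 33.4, 47.7 and 34.3 CPM and at 30.4, 33.7 and 20.5 CPM. The lowest value was in sh2-Ift88 3 and the highest in control 2, and the log2 fold change was -0.45 (standard error 0.28). Eif2ak3, the kinase PERK of the endoplasmic reticulum, ran from 20.1 to 31.7 CPM.

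The name rule also takes in genes that are called eIF2 for other reasons. Eif2a, an alternative factor that can deliver the initiator tRNA, ran from 51.1 CPM in sh2-Ift88 2 to 136 CPM in control 3. Its log2 fold change of -0.17 (standard error 0.38) turned to 0.071 without control 3 and to 0.13 without sh2-Ift88 2. Eif2d, of a similar activity, ran from 19.1 to 38.5 CPM. Eif2c1 to Eif2c4 are older symbols of the argonautes, which bind microRNAs and are no initiation factors. Eif2c4 was at 10.7, 15.5 and 5.98 CPM across the controls and 12.8, 17.8 and 15.4 CPM across the libraries labelled sh2-Ift88, with the lowest value in control 3 (log2 fold change 0.51, standard error 0.40). Without control 3 it was 0.22 and without control 2 it was 0.87. The other 3 argonautes lay between 46.0 and 115 CPM. Eif2c5 was one of the 2 members too low to test, at 1 to 43 reads per library.

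The scaffold eIF3, which holds the small subunit open and links it to the eIF4 factors, had 6 of 13 subunit genes higher and 7 lower, with a median of -0.044 that ran from -0.23 without sh2-Ift88 1 to 0.11 without sh2-Ift88 2. Its genes lay on one side of their means in some libraries and were split in others. In sh2-Ift88 1 all 13 were above their own mean over the 6 libraries. In sh2-Ift88 2 all 13 were below it, as were 12 in control 2. The members as a whole leaned the same way. Of 57 tested, 39 were above their mean in sh2-Ift88 1, 39 below it in sh2-Ift88 2 and 37 below it in control 2. In the other libraries the eIF3 genes were split, with 9 of 13 above in control 1, 8 in control 3 and 5 in sh2-Ift88 3. The median difference of the complex from its mean was 0.15, -0.28 and 0.045 across the controls and 0.44, -0.28 and -0.026 across the libraries labelled sh2-Ift88, on the log2 scale. The highest and the lowest value of the complex were thus both in libraries labelled sh2-Ift88. Eif3a, the large scaffold subunit, was at 331, 244 and 216 CPM across the controls and 369, 235 and 266 CPM across the libraries labelled sh2-Ift88. Eif3b, its partner in the core, ran from 93.2 CPM in sh2-Ift88 3 to 183 CPM in sh2-Ift88 1. Eif3l had the smallest p of the complex, at 252, 209 and 232 CPM against 361, 225 and 265 CPM (log2 fold change 0.30, standard error 0.27), which fell to 0.066 without sh2-Ift88 1. Eif3d, a subunit that can bind the cap, was at 197, 185 and 199 CPM and at 332, 188 and 199 CPM. Apart from sh2-Ift88 1 its libraries lay between 185 and 199 CPM, and without sh2-Ift88 1 its log2 fold change went from 0.31 to -0.019. Eif3i was at 287, 205 and 187 CPM and at 333, 186 and 270 CPM, and without sh2-Ift88 1 its log2 fold change went from 0.22 to -0.0055. The remaining Eif3c, Eif3f, Eif3g, Eif3j, Eif3k and Eif3m overlapped between the groups, and none differed by more than 2.04-fold between any 2 libraries.

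Among the eIF4 genes 5 of 11 tested lay higher and 6 lower (median -0.12). Eif4a1, the helicase that unwinds the mRNA leader, was at 827, 621 and 859 CPM across the controls and 660, 438 and 656 CPM across the libraries labelled sh2-Ift88. Control 2 lay below sh2-Ift88 1 and 3, and the log2 fold change was -0.40 (standard error 0.31). Its paralogue Eif4a2 was at 154, 129 and 197 CPM and at 266, 195 and 90.4 CPM, with both the highest and the lowest value in libraries labelled sh2-Ift88 (log2 fold change 0.20, standard error 0.41). Without sh2-Ift88 1 it was -0.19. Eif4b, which stimulates the helicase, was at 804, 569.5 and 749 CPM across the controls and 1385, 681 and 854 CPM across the libraries labelled sh2-Ift88. Its log2 fold change of 0.46 (standard error 0.36) fell to 0.10 without sh2-Ift88 1. Eif4g2, a scaffold that works without cap binding, was at 711, 817 and 360 CPM and at 927, 783 and 819 CPM. Control 3 alone was low, and without it the log2 fold change of 0.42 (standard error 0.36) fell to 0.14. Eif4g1, the main scaffold, ran from 251 CPM in sh2-Ift88 3 to 459 CPM in sh2-Ift88 1. Eif4g3 ran from 71.7 to 159 CPM, Eif4h from 253 to 422 CPM, Eif4a3, a core of the exon junction complex, from 87.3 to 132 CPM, and Eif4enif1, which carries eIF4E into the nucleus, from 33.8 to 51.5 CPM. The cap-binding homologue Eif4e2 was at 196 CPM in control 1 and between 74.4 and 113 CPM in the other 5. Eif4e3 was at 33.6 CPM in sh2-Ift88 3 and between 10.02 and 18.1 CPM in the other 5. Eif4e1b, known from oocytes, had 0 to 4 reads per library and was not tested.

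A pseudogene row moved with Eif4a1. The row of its pseudogene Eif4a-ps4, left out by the name rule, held between 25.4% and 27.1% as many reads as Eif4a1 in each of the 6 libraries. In GENCODE transcripts, 65.3% of all stretches of 50 bases of the Eif4a1 transcripts also occurred in a transcript of another gene, most often Eif4a-ps4. With the pseudogene reads added the log2 fold change of Eif4a1 was -0.40, as without them, and its level is uncertain. The same measure was 64.3% for Eef1g and 52.4% for Eef1a1, and at least 10% for 11 of 58 members with such sequence, so the levels of these rows are uncertain too. The handling of reads with several matches is not given, and both the tally of low-quality and that of non-unique alignments are 0 in all 6 libraries.

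Of the eIF5 and eIF6 genes 2 of 5 lay higher and 3 lower (median -0.11). Eif5a, which relieves stalled ribosomes and carries the hypusine modification, was at 310, 294 and 742 CPM across the controls and 440, 227 and 259 CPM across the libraries labelled sh2-Ift88. Control 3 stood above the other 5 libraries, and without it the log2 fold change of -0.54 (standard error 0.46) turned to 0.025. Its paralogue Eif5a2 was at 14.5, 32.6 and 28.9 CPM and at 24.9, 24.999 and 28.2 CPM, with the lowest value in control 1 (log2 fold change 0.038, standard error 0.33). Without control 1 it turned to -0.24 and without sh2-Ift88 3 to -0.058. Eif5b, the factor that joins the ribosomal subunits, was at 80.4, 74.4 and 76.1 CPM and at 58.8, 67.7 and 80.0 CPM (log2 fold change -0.16, standard error 0.22). Eif5, which makes eIF2 hydrolyse its GTP, ran from 124 to 187 CPM, and Eif6, which keeps the subunits apart, from 56.04 to 77.1 CPM.

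The elongation factor eEF1 was split evenly, 3 of its 6 genes higher and 3 lower (median -0.046). Eef1a1 alone held between 39.3% and 51.4% of all reads of the members. It was at 9084, 5265 and 8213 CPM across the controls and 9562, 6705 and 9622 CPM across the libraries labelled sh2-Ift88. The lowest value was in control 2 and the groups overlapped (log2 fold change 0.20, standard error 0.37). Without control 2 the log2 fold change was -0.0089. Eef1d, of the exchange factor eEF1B, was at 233, 203 and 280 CPM and at 451, 256 and 285 CPM, with a log2 fold change of 0.47 (standard error 0.31) that fell to 0.16 without sh2-Ift88 1. Eef1b2, a catalytic exchange subunit, ran from 374 CPM in control 2 to 770 CPM in control 3, and Eef1g from 281 to 386 CPM. Eef1e1, a part of the multi-synthetase complex, ran from 14.95 to 36.6 CPM.

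Eef1a2, the eEF1A form of neurons and muscle, varied most of the tested members. It was at 0.182, 24.2 and 59.3 CPM across the controls and 25.2, 12.2 and 0.250 CPM across the libraries labelled sh2-Ift88, where the lowest values rest on 6 reads in control 1 and 4 reads in sh2-Ift88 3. One library of each group was thus near 0, and the highest exceeded the lowest by 326-fold. The log2 fold change was -1.15 (standard error 1.67, edgeR adjusted p = 0.9995), and without control 3 it turned to 0.049. The summed level of 14 markers of mature neurons was 62.0, 199 and 584 CPM across the controls and 249, 181 and 23.3 CPM across the libraries labelled sh2-Ift88. The libraries took the same order as with Eef1a2 for the 4 highest, and the same pair was lowest. Snap25, a synaptic vesicle fusion protein and one of these markers, took that order among the 4 highest too, at 0.545, 68.0 and 199 CPM and at 90.4, 44.3 and 1.06 CPM. One of the 14 markers had no read in control 1, and 1 had none in control 3. The part of neurons in the Eef1a2 values was not tested, and in whole tissue fewer cells of a type cannot be told apart from less RNA per cell. Astrocyte markers, 6 genes, summed to 74.0, 251 and 636 CPM and to 387, 331 and 78.2 CPM. Oligodendrocyte markers, also 6 genes, summed to 4.85, 80.0 and 207 CPM and to 37.2, 69.3 and 4.19 CPM. Both lists were thus lowest in control 1 and sh2-Ift88 3 and highest in control 3, as Eef1a2 was, and their part was not tested either.

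**Figure D3:**
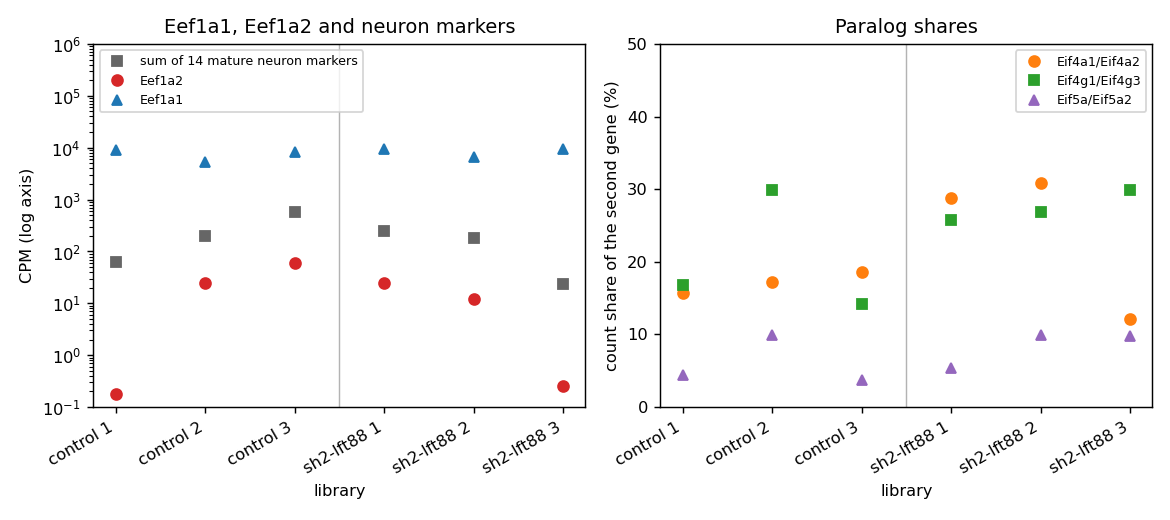
Left, levels in CPM on a log axis of Eef1a1, Eef1a2 and the sum of 14 mature neuron markers in each library. Eef1a2 and the neuron markers are both lowest in control 1 and sh2-Ift88 3. Right, share of reads of a paralogue pair that fell on its second gene, where Eif4a2 takes 12.1% in sh2-Ift88 3 and 30.8% in sh2-Ift88 2.

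The sequence before the start of the paralogue pairs Eef1a1 and Eef1a2, and Eif4a1 and Eif4a2, is shown because the 2 genes of each pair varied differently between the libraries. Each window holds 250 bases before and 50 bases after the first listed start of the gene in RefSeq (build GRCm38.p6), 5′ to 3′ on the strand of the gene. Capitals mark matches on either strand to the E-box CACGTG, the ETS-type motif ACTTCCG, the GC box GGGCGG and the TATA motif TATAAA, and no 2 matches overlap in these windows.
Eef1a1, chr9:78481675-78481974, minus strand: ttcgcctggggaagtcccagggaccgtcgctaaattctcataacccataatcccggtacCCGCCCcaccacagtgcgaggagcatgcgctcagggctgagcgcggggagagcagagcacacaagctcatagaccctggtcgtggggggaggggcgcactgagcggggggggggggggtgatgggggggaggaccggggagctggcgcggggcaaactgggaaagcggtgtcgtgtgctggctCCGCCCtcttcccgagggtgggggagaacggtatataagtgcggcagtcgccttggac
Eef1a2, chr2:181156966-181157265, minus strand: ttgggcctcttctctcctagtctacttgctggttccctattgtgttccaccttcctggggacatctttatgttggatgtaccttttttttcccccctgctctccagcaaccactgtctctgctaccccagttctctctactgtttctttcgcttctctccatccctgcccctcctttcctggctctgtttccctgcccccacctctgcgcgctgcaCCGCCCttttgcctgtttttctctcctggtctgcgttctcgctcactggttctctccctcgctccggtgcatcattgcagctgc
Eif4a1, chr11:69672374-69672673, minus strand: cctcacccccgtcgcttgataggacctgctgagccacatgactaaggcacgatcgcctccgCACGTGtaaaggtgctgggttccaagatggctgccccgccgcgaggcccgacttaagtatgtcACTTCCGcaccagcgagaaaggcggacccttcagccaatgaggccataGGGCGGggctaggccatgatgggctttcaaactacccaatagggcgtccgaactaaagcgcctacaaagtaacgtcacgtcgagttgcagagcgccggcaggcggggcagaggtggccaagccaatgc
Eif4a2, chr16:23107218-23107517, plus strand: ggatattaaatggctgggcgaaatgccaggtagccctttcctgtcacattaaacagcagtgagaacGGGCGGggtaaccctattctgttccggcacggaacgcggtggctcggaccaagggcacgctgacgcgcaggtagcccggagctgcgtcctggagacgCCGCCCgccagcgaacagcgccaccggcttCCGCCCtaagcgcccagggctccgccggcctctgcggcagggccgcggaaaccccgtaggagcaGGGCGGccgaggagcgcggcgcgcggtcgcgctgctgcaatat
Both eEF1A windows held GC boxes, 2 in Eef1a1 and 1 in Eef1a2, and no exact match to the other motifs. Near its end the Eef1a1 window reads tatataag, which resembles the TATA motif but is not a match to its exact letters. The Eif4a1 window held 1 E-box, 1 ETS-type motif and 1 GC box, and that of Eif4a2 held 4 GC boxes. A window was at hand for 47 members. The GC box was in 74.5% of them, against 35.9% of the windows of all 27025 RefSeq genes, noncoding ones included. The ETS-type motif was in 27.7% against 6.59%, the E-box in 17.0% against 7.24% and the TATA motif in 6.38% against 14.2%. These are matches of letters and not measured binding.

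Corrected for exon length, Eef1a1 stood far above the other members. It was at 3017 CPM per kilobase of exon in the controls on average and 3462 in the libraries labelled sh2-Ift88, as CPM divided by the length of all exons in the GENCODE annotation of a later build. Among the next were Eif3h at 251 and 244, Eef1b2 at 240 and 204, Eif5a at 189 and 130, Eif4a1 at 177 and 135 and Eif4b at 158 and 218 CPM per kilobase. The ranges of these 5 over libraries overlapped, so the order among them is not fixed. The order also rests on the lengths used, which count the exons of every annotated transcript of a gene. These were 4334 bases for Eif4a1 and 1612 bases for Eif3h. Eef1g followed at 122 and 129.8, and its range overlapped those of Eef1b2, Eif5a, Eif4a1 and Eif4b. Apart from Eif3h and Eif3j (5.50 and 5.15), the eIF3 subunits lay between 30.2 and 78.03 CPM per kilobase in either group mean. Before the correction Eif3e and Eif3h were close, at 426 and 405 CPM in the controls on average. Their exon lengths were 6719 and 1612 bases, so the length used sets Eif3h apart from Eif3e. Eif3j shares 39.8% of its stretches of 50 bases with other genes, most often Eif3j2, so its level is uncertain. The eIF2 subunits were at 16.1 to 26.9, the eIF2B subunits at 4.96 to 26.5 and the eIF2 kinases at 2.85 to 7.52 CPM per kilobase.

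The balance within paralogue pairs was compared between the groups as well. Over 7 pairs, the share of reads on the second gene was compared by an exact two-sided permutation test over samples, which with 3 against 3 cannot give a p under 0.10, so no pair could pass 0.05. The smallest exact p was 0.4, and 0.56 after Benjamini-Hochberg adjustment over the 7 pairs. The share of Eif4a2 was 15.7%, 17.2% and 18.6% across the controls and 28.7%, 30.8% and 12.1% across the libraries labelled sh2-Ift88. It was above all controls in 2 of 3 libraries and below them in the third. The share of Eif4g3 in the pair with Eif4g1 was 16.8%, 29.9% and 14.2% and 25.7%, 26.9% and 29.8%, and control 2 lay above all libraries of the other group. For Eif5a2 in the pair with Eif5a it was 4.47%, 9.96% and 3.76% and 5.36%, 9.94% and 9.82%.

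Members were also compared with the genes around them on the chromosome, a comparison chosen after their values were seen. In the RefSeq annotation of GRCm38.p6, chromosome 15 holds 7 tested members, in the order Eif3e, Eif3h, the argonaute Eif2c2, Eef1d, Eif3d, Eif3l and Eif4b. Without the argonaute, all 6 were above their mean in sh2-Ift88 1, by 0.48 to 0.78 on the log2 scale, and for 5 of the 6 that library was the highest. The first 2 in order were high in control 3 as well. Eif3e was at 393, 278 and 606 CPM across the controls and 612, 332 and 392 CPM across the libraries labelled sh2-Ift88. Eif3h was at 306, 241 and 668 CPM and at 522, 329 and 327 CPM. With the argonaute left out, the 4 genes further along the chromosome were not raised in control 3, where they differed from their mean by -0.12 to 0.024.

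Expressed neighbours of these genes, 10 on each side and none of them members, were compared with them. Around Eif3h their median difference was 0.66 in control 3 and 0.47 in sh2-Ift88 1, against 0.83 and 0.48 for the gene. For Eif3e the neighbours were at 0.63 and 0.41, against 0.54 and 0.55. Members that lie close together can share neighbours, so these comparisons are not independent of each other. With 20 neighbours on each side the values in sh2-Ift88 1 were lower, 0.14 around Eif3h and 0.18 around Eif3e, while those in control 3 were 0.68 and 0.71. Near Eif3d, by contrast, the neighbours were at -0.40 in control 3 and 0.72 in sh2-Ift88 1, and the gene was at -0.089 and 0.65. For Eif3l the neighbours were at -0.42 and 0.62, against -0.12 and 0.51 for the gene. For Eef1d they were at -0.30 and 0.27, against 0.024 and 0.71, and for Eif4b at -0.59 and 0.30, against -0.11 and 0.78. In sh2-Ift88 2 the neighbours of Eef1d and Eif4b were raised, at 0.36 and 0.38, where these genes were at -0.10 and -0.25. Over the whole chromosome 380 expressed genes had a median of 0.38 in sh2-Ift88 1, the highest of the 6 libraries, and of -0.27 in control 3, the lowest. The argonaute Eif2c2, between Eif3h and Eef1d in order, did not follow. It was at -0.28 in sh2-Ift88 1, where its neighbours were at 0.21. Its highest level was in control 3, at 0.50 above its mean, where its neighbours were at -0.41.

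**Figure D4:**
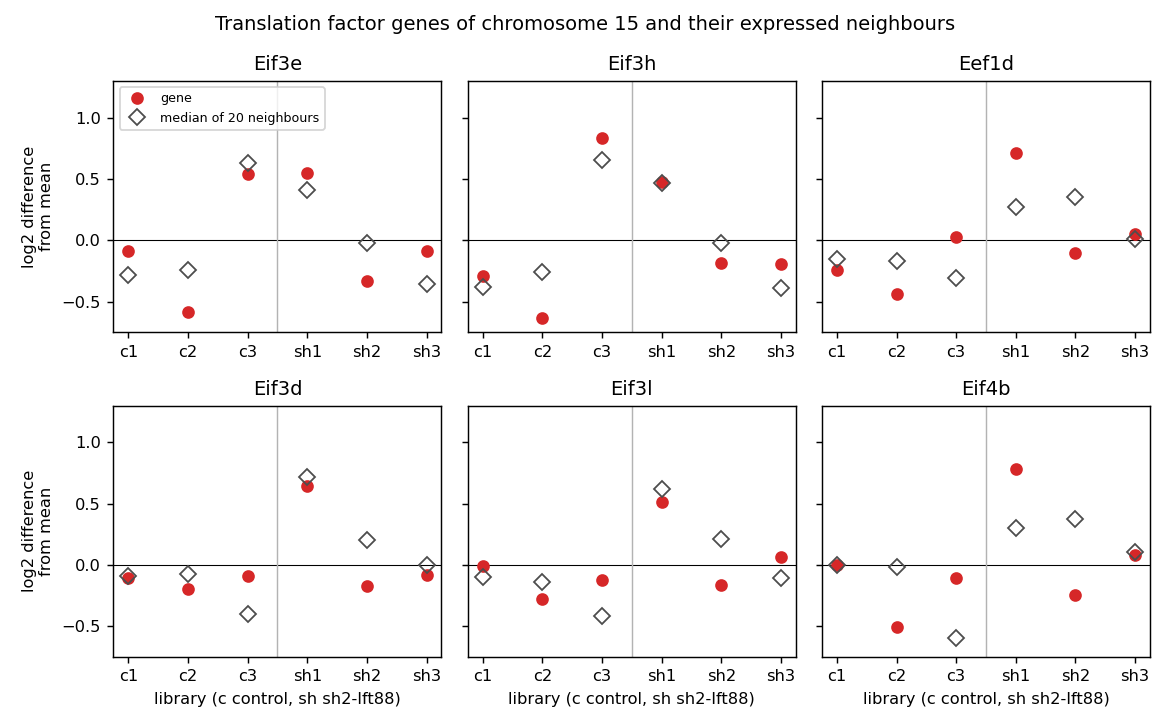
Log2 difference of 6 translation factor genes of chromosome 15 from their mean over the 6 libraries (filled circles) and the median of their 20 expressed neighbours (open diamonds), in chromosomal order. Eif3e and Eif3h and their neighbours are high in both control 3 and sh2-Ift88 1, and the other 4 genes in sh2-Ift88 1 alone. The argonaute Eif2c2 of the same chromosome, highest in control 3, is not shown.

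Members on other chromosomes were like their neighbours in some cases only. Eif1ax was 0.63 above its mean in control 1, where its neighbours were at 0.49 and 304 expressed genes of the X chromosome at a median of 0.54. In control 3 Eif2b3 and Eif3i, both on chromosome 4, were at -0.46 and -0.35 and their neighbours at -0.53 and -0.68. Eif5a was not like its neighbours, at 1.10 in control 3 against 0.17. Eif4g2 was at -0.97 in control 3 against -0.26. Over 56 members with a mean log2 CPM above 3, the correlation of a gene with its neighbours, across genes within a library, was 0.64, 0.57 and 0.59 across the controls and 0.41, 0.20 and 0.56 across the libraries labelled sh2-Ift88. Over 9203 genes it was 0.32, 0.38 and 0.29 and 0.34, 0.28 and 0.41. In sh2-Ift88 2 the members were thus below all genes, and without those on chromosome 15 the value of sh2-Ift88 1 was 0.23, below all genes too. The share of members on the same side of 0 as their neighbours was below that of all genes in control 2 (60.7% against 64.7%), sh2-Ift88 1 (55.4% against 63.4%) and sh2-Ift88 2 (28 of 56 members, against 59.3%). It was above it in control 1 (69.6% against 68.7%), control 3 (66.1% against 61.5%) and sh2-Ift88 3 (67.9% against 66.3%). Genes of one library share its depth and scaling, and they are not independent replicates.

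Other genes of translation did not pass either. Of 36 tested genes for termination, poly(A) binding, scanning, modification of eIF5A and eEF2, selenocysteine insertion, eIF2 dephosphorylation and mitochondrial translation, 18 lay above and 18 below the controls (median log2 fold change 0.0035). Pdcd4, which binds and inhibits the eIF4A helicase, had the smallest p. It was at 39.1, 67.8 and 35.4 CPM across the controls and 79.4, 86.4 and 80.3 CPM across the libraries labelled sh2-Ift88. The groups did not overlap, as for 4.70% of all genes in that direction, and the log2 fold change was 0.79 (standard error 0.30, unadjusted p = 0.0304, edgeR adjusted p = 0.9995). Hbs1l, which rescues stalled ribosomes, was at 49.4, 51.5 and 52.7 CPM and at 81.1, 55.98 and 80.2 CPM, again without overlap. Its log2 fold change was 0.50 (standard error 0.23, edgeR unadjusted p = 0.0658, adjusted p = 0.9995). Paip2 and Mcts2 were also higher without overlap, and Dph1 and Mtrf1 were lower without overlap, as were 3.69% of all genes. Of 9 mitochondrial translation factors 1 was higher and 8 were lower, with a median of -0.13 and none called.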

How the data were processed

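RNA-seq gene counts of 6 mouse brain tumour libraries were grouped by their sample descriptions. Per the labels' protocols, libraries were made from total RNA with a stranded kit. Per the submitters' processing notes, BWA and the build mm9 were used. No source names the counting program, annotation or strand setting. Each deposited table holds raw, unnormalized read counts per gene for 1 library. Closing tallies were kept out, among them reads without a feature (18.8% to 39.5% of reads).

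The test across genes was that of edgeR 4.0.16 (R 4.3.3, filterByExpr, TMM scaling, two-sided quasi-likelihood test, robust, Benjamini-Hochberg over all 16768 tested genes), with DESeq2 1.42.0 and limma 3.58.1 as alternatives. The test was checked on simulated counts with a single constant dispersion and no outlying library. That check does not show how it behaves at the spread of these libraries. The standard error of a log2 fold change is its size divided by the square root of the F statistic of the edgeR test. The 95% confidence interval takes that error and the t distribution. CPM were computed here with TMM-scaled library sizes. Log2 differences from a gene's mean use a prior count of 2. Fold changes are given for the 2 members of smallest p per complex (3 for eIF3 and eIF4), for 3 paralogue pairs fixed by name and for the 2 other translation genes of smallest p. Symbols matched RefSeq for 54 members and by an older symbol for 5. The members, lists and alternatives were chosen with earlier results of these data known. Alternatives were other scalings, filters and tests, leaving out each library, and a term for or split by more than 100 detected olfactory receptor rows. Leaving out members on chromosome 15, adding Eif4a-ps4 reads and other neighbour numbers were chosen after seeing the data.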

Additional observations from a re-analysis of the deposited data

How the results depend on the processing

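No paired analysis was possible because the replicate numbers are only the order of deposit. No member was called by any alternative, and over 25 named genes the adjusted p ran from 0.867 to 1. Over all genes DESeq2 called 44 higher and 12 lower, and unfiltered counts in edgeR gave 5 and 1, where the filtered counts gave none. Calls stayed at 0 with any 1 library left out, where a group is then 2 libraries.

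Library totals alone moved the median of all genes to -0.33, and with it the complex medians: eIF1 -0.33, eIF2 subunits -0.42, eIF2 kinases -0.35, eIF2B -0.52, other eIF2-named genes -0.40, eIF3 -0.34, eIF4 -0.42, eIF5 and eIF6 -0.39, eEF1 -0.42 and all members -0.39. It also turned Eef1a1 to -0.15, Eif1b to -0.25, Eif2s2 to -0.12, Eif3i to -0.098, Eif3l to -0.0064, Eif4a2 to -0.0093 and Eif5a2 to -0.31. Without a filter the eIF4 median was 0.0071. Within the 3 libraries with olfactory receptor reads, of which 1 is a control, the median was 0.11 for eIF2 kinases, -0.29 for eIF5 and eIF6 and 0.34 for eEF1. There Eif1ax was 0.52, Eif2b3 -0.12, Eif4g2 -0.041 and Eif5a2 -0.30. Within the other 3, of which 1 is labelled sh2-Ift88, the median was -0.13 for eIF2 kinases, -0.39 for other eIF2-named genes and 0.056 for eIF5 and eIF6, and Eif1b was -0.15, Eif2a 0.21 and Eif2ak1 -0.075. With a term for such reads Eif5a2 was -0.048. The cause was not tested.

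With libraries left out in turn, medians ran from -0.12 to 0.098 for eIF1, -0.21 to 0.044 for eIF4 and -0.13 to 0.0035 for eIF5 and eIF6. They also changed sign for eIF3 (-0.23 to 0.11), eEF1 (-0.19 to 0.12) and all members (-0.12 to 0.049). The eIF3 median was 0.063 with limma-voom, 0.23 with the olfactory term, and 0.17 and 0.25 within the libraries with and without such reads. Without control 1, Eif1ax was 0.092 and Eif5a2 -0.24. Without control 2, Eef1a1 was -0.0089. Without control 3, Eef1a2 was 0.049, Eif2a 0.071 and Eif5a 0.025. Without sh2-Ift88 1, Eif3d was -0.019, Eif3i -0.0055 and Eif4a2 -0.19. Without sh2-Ift88 2, Eif2a was 0.13, and without sh2-Ift88 3, Eif1b was -0.078 and Eif5a2 -0.058. The ranges with 1 library left out were -0.0089 to 0.35 for Eef1a1, -2.19 to 0.049 for Eef1a2, -0.48 to 0.092 for Eif1ax, -0.078 to 0.21 for Eif1b, -0.52 to 0.13 for Eif2a, -0.019 to 0.46 for Eif3d, -0.0055 to 0.42 for Eif3i, -0.19 to 0.49 for Eif4a2, -0.92 to 0.025 for Eif5a and -0.24 to 0.25 for Eif5a2. Named genes that kept their sign but moved over 1.5 times included Eif2ak1 (0.23 without sh2-Ift88 3), Eif2ak2 (-0.27 without control 2), Eif2s1 and Eif4a1 (-0.26 and -0.23 without sh2-Ift88 2), Eif2b2 and Eif5b (-0.46 and -0.080 without sh2-Ift88 1) and Eif4g2 (0.65 without control 2). Differences in paralogue share ran from -3.44 to 4.36 percentage points for Eif1b and from -7.01 to 5.20 for Eif1ax. Eif1b turned to -0.41 without control 3 and to -3.44 without sh2-Ift88 3, and Eif1ax to 5.20 without control 1 and to 0.54 without sh2-Ift88 1. With 5 or 20 neighbours on each side, the 24 neighbour medians of control 3 and sh2-Ift88 1 kept their sign, but in sh2-Ift88 1 those around Eif3h and Eif3e fell to 0.14 and 0.18 with 20, and that around Eif3l to 0.34 with 5. Without the 6 chromosome 15 factors the median of all members was -0.11.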
